A study of Mus musculus with 40 samples.

Results

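The TAM receptors Tyro3, Axl and Mertk and their ligands Gas6 and Pros1 were examined in the choroid and the retina of mice after laser injury. The 5 genes were taken by symbol from the 54307 genes of the deposited table, and each symbol matched 1 Ensembl identifier. TAM receptors are receptor tyrosine kinases that let a phagocyte take up dying cells and membrane debris. They do not bind the exposed lipid phosphatidylserine themselves: Gas6 and protein S (the product of Pros1) hold on to it through a vitamin K dependent Gla domain and bridge it to the receptor. In the eye, Mertk is known for the daily uptake of photoreceptor outer segments by the retinal pigment epithelium (RPE), and its loss leads to photoreceptor degeneration, while Axl and Mertk on macrophages also dampen inflammatory signalling.

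RNA came from both tissues of 20 mice, giving 40 libraries, with 5 mice in each of 4 groups. All mice were Tgfbr2 fl/fl on a C57BL/6J background, of both sexes, and all received tamoxifen eye drops for 5 days from 6 to 7 weeks of age and 6 laser burns per eye, with tissue taken on day 3. Tgfbr2ΔEC mice also carried Cdh5-CreERT2, a tamoxifen-dependent recombinase under an endothelial promoter, and controls were Cre-negative littermates, so both genotypes had met tamoxifen. The groups control + PLX and Tgfbr2ΔEC + PLX were fed PLX5622, an inhibitor of the CSF1 receptor that depletes mononuclear phagocytes (MP), from the first tamoxifen dose to the end, whereas control – PLX and Tgfbr2ΔEC – PLX received control food. The choroid libraries came from the lesion-bearing middle of the tissue, and their RNA also held RPE, photoreceptor and muscle transcripts.

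The values are normalized counts: estimated reads per gene divided by a size factor for each library, scaled over both tissues together. They summed to between 24718469 and 25956180 in a choroid and between 22256892 and 24507335 in a retina. The floxed gene Tgfbr2 was at 10503 ± 425 normalized counts in control – PLX and 10176 ± 1077 in Tgfbr2ΔEC – PLX choroids (SD, n = 5). In the corresponding groups with PLX it was at 11155 ± 1530 and 11220 ± 454. These counts from whole-tissue RNA did not separate the genotypes at this gene. The paper reports a successful deletion, checked in choroid by PCR and qPCR. PLX lowered the MP markers in both tissues: 14 of 15 tested markers fell in choroid, with a median log2 difference of -2.60, and 15 of 15 fell in retina, with a median of -5.42 (limma, adjusted p at or under 0.05). Neural retina markers, called rod markers below although not all are particular to rods, were present in the choroids in unequal amounts. Their score (mean log2 of 10 genes) lay between 7.25 and 12.89. The Tgfbr2ΔEC – PLX choroids had the highest mean (11.98 ± 0.71, SD, n = 5, against 9.48 ± 1.39 in control – PLX).

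The annotated positions of the members on GRCm39 are as follows. Mertk (ENSMUSG00000014361) lies on chromosome 2 from 128540729 to 128645080 on the plus strand and Tyro3 (ENSMUSG00000027298) on the same chromosome and strand from 119628214 to 119648738. Axl (ENSMUSG00000002602) lies on chromosome 7 from 25456535 to 25488329 on the minus strand. Gas6 (ENSMUSG00000031451) lies on chromosome 8 from 13515371 to 13544824 on the minus strand, and Pros1 (ENSMUSG00000022912) on chromosome 16 from 62674275 to 62749710 on the plus strand. The libraries were stranded. The gene on the opposite strand at Gas6, Tmem255b, was at 255 ± 79.9 normalized counts in choroid (SD, n = 20), and Gm14011, opposite Mertk, was listed at 0 in all 40 libraries.

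Because the 3 receptors were higher in choroid by unequal amounts, their promoters are shown side by side, from 250 bases before to 50 bases after the RefSeq start. Both strands of the 5 members' promoters were searched for 4 motifs. The motif GAGGAAG, bound by ETS factors of the PU.1 kind, gave the only match, in Axl at position -131 on the opposite strand, and capitals mark it. The E-box was spelled CACGTG or, in its other form searched here, CATGTG. The OTX and CRX motif was spelled TAATCC. The AP-1 motif was spelled TGACTCA or, with the other middle base, TGAGTCA. The windows are, on GRCm38.p6, chr2:128698665-128698964 (plus strand) for Mertk, chr7:25788684-25788983 (minus strand) for Axl and chr2:119799264-119799563 (plus strand) for Tyro3.
Mertk: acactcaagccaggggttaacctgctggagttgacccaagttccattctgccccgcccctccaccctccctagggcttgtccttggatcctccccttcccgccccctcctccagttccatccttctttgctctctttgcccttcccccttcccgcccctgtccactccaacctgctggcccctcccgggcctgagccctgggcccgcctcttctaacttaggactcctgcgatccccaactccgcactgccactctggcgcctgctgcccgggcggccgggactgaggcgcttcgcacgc
Axl: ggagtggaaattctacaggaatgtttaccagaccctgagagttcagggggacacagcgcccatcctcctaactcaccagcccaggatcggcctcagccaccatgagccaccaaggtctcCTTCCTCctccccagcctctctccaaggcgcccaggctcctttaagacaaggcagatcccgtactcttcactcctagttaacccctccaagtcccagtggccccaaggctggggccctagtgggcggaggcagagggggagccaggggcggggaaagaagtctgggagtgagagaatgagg
Tyro3: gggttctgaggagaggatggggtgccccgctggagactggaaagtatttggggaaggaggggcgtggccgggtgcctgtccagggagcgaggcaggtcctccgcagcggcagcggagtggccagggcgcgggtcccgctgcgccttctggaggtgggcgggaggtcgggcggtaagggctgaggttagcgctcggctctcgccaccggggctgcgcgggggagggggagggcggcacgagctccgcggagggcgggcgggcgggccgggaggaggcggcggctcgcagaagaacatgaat

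GAGGAAG was present in 13.5% of 27025 RefSeq promoters of this length, the E-box pair in 20.5%, TAATCC in 7.2% and the AP-1 pair in 5.2%. The 3 promoters differed in their CpG content: Tyro3 held 31 CpG dinucleotides in 300 bases, Mertk 14 and Axl 6, against a median of 7 over all promoters. Among the ligands, the promoter of Pros1 held 21 and that of Gas6 17. A match, or its absence, describes these letters only.

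All 5 members were higher in choroid than in retina, in 20 of 20 mice each. Over all genes, 40.8% of 24317 tested were higher in choroid by the same rule (limma on log2(normalized count + 1), Benjamini-Hochberg adjusted p at or under 0.05). In these bulk samples, fewer cells of a type and less RNA per cell cannot be told apart.

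Axl, a receptor for Gas6 that is widely expressed in connective tissue, vessels and macrophages, had the largest difference of the 5. It ranged from 7022 to 12622 normalized counts in choroid (median 9058) and from 235 to 927 in retina (median 397), a log2 difference of 4.45 (95% interval 4.19 to 4.71, adjusted p = 4.07e-28, limma), or 21.9-fold. Mertk ranged from 2292 to 3189 in choroid (median 2619) and from 171 to 326 in retina (median 245), a log2 difference of 3.47 (3.35 to 3.59, adjusted p = 5.09e-35), or 11.1-fold. For both receptors the lowest choroid lay above the highest retina, as it did for Tyro3, Gas6 and Pros1. How many of all genes had ranges apart in this way was not counted.

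Tyro3, the receptor best known from neurons, was also higher in choroid, with 809 to 1852 normalized counts (median 1491) against 305 to 568 (median 473) in retina. Its log2 difference was 1.63 (1.47 to 1.79, adjusted p = 4.3e-21, limma), smaller than that of Axl and of Mertk in 20 of 20 mice each. Axl exceeded Mertk in its tissue difference in 19 of 20 mice, by a mean of 0.98 ± 0.60 (SD) on the log2 scale.

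Of the ligands, Pros1 ranged from 2764 to 3875 normalized counts in choroid (median 3175) and from 261 to 749 in retina (median 459), a log2 difference of 2.74 (2.57 to 2.92, adjusted p = 8.14e-27, limma). Gas6 ranged from 9521 to 20192 in choroid (median 14816) and from 4031 to 6806 in retina (median 4677), a log2 difference of 1.58 (1.447 to 1.708, adjusted p = 3.44e-23). The tissue difference of Pros1 was larger than that of Gas6 in 20 of 20 mice, while those of Tyro3 and Gas6 did not separate (mean difference 0.05 ± 0.41, SD, with Tyro3 the larger in 12 of 20 mice). The size of each difference varied between mice, from 8.88-fold to 53.6-fold for Axl and from 7.06-fold to 18.5-fold for Mertk. Marker lists of several cell types differed between the tissues as well: 10 of 10 RPE markers, 15 of 15 MP markers, 8 of 8 mural and 6 of 6 fibroblast markers were higher in choroid, with median log2 differences of 5.43, 5.86, 4.59 and 10.51, and 10 of 10 rod markers were lower, with a median of -5.99. Their part in the differences of the members was not tested.

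**Figure D1:**
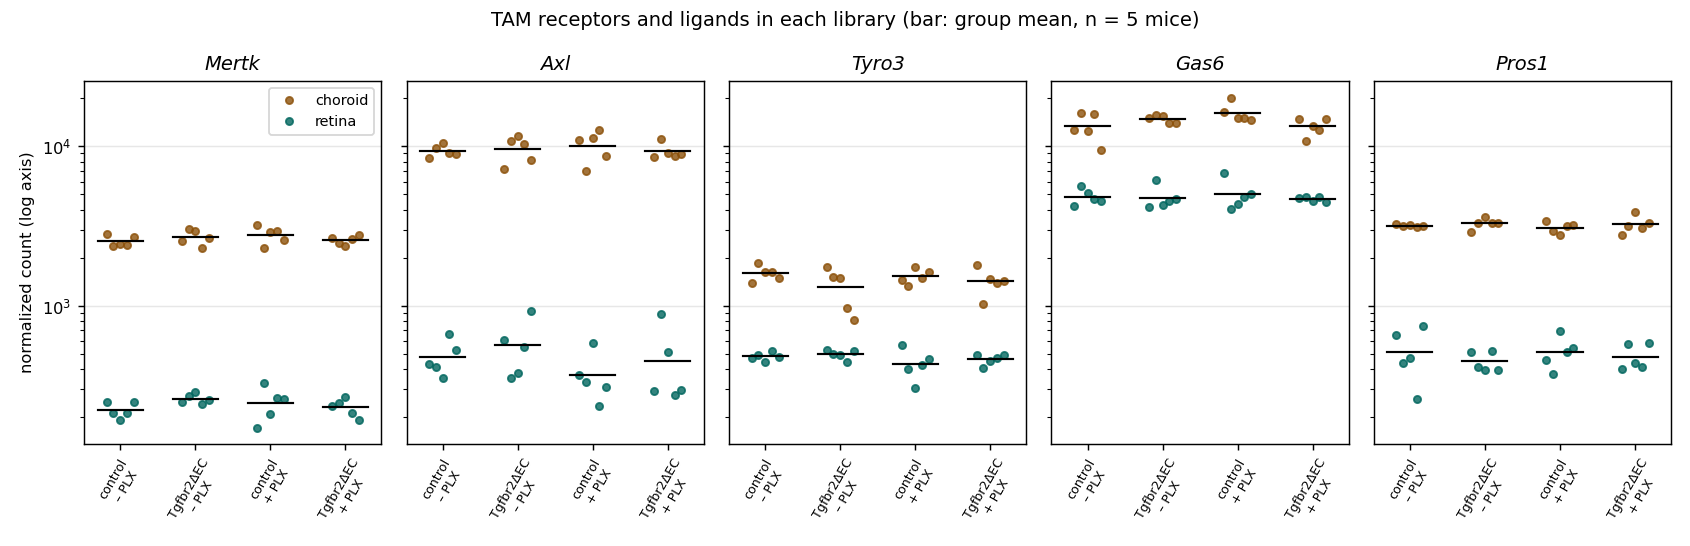
Normalized counts (log axis) of each TAM gene in every library, by group, with choroid in brown and retina in green. Each point is 1 mouse and each bar the mean of 5 mice. In all 5 panels the choroids lie above the retinas, while the 4 groups of a tissue overlap.

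To compare the genes with one another, normalized counts were divided by the length of the longest annotated transcript (3706 to 4709 bases among the members). In choroid the order per kilobase was Gas6 (3820 ± 592, SD, n = 20), Axl (2062 ± 320), Pros1 (861 ± 70.0), Mertk (561 ± 54.3) and Tyro3 (317 ± 58.8). Only the ranges of Gas6 and Axl overlapped between neighbours, and Gas6 was above Axl in 20 of 20 choroids. In retina Gas6 again came first (1275 ± 181), followed by Pros1 (132 ± 32.1), Tyro3 (101 ± 12.3), Axl (100 ± 41.7) and Mertk (50.8 ± 7.77). There the neighbours below Gas6 overlapped: Pros1 was above Tyro3 in 17 of 20 retinas, Tyro3 above Axl in 12 of 20 and Axl above Mertk in 19 of 20. With the summed length of all annotated exons in place of the longest transcript, Mertk (550) passed Pros1 (505) in choroid, and Axl (50.6) came level with Mertk (49.8) in retina.

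The make-up of the receptor RNA differed between the tissues. Axl made up 69.9% ± 3.3 of the summed receptor level per kilobase in choroid (SD, n = 20, range 63.0% to 76.2%) and 38.4% ± 9.4 in retina (25.5% to 57.8%), so that the lowest choroid share exceeded the highest retina share. Tyro3 made up 10.9% ± 2.3 in choroid (7.0% to 15.3%) and 41.0% ± 7.2 in retina (26.5% to 51.5%), again with no overlap. The share of Mertk was 19.2% ± 2.0 in choroid and 20.6% ± 4.3 in retina, with overlapping ranges. Gas6 made up 81.3% ± 2.8 of the 2 ligands in choroid and 90.5% ± 2.5 in retina. Summed ligands exceeded summed receptors in all 40 libraries, by 1.62 ± 0.321 times in choroid (1.18 to 2.69) and by 5.741 ± 1.203 times in retina (3.69 to 8.07). By diet, Axl stood at 69.9% ± 3.5 without and 69.8% ± 3.3 with PLX in choroid (SD, n = 10), and at 40.7% ± 7.2 and 36.1% ± 11.1 in retina. These shares depend on the transcript length. Per kilobase of summed exon length, an alternative chosen after seeing the data, the share of Axl was 57.4% ± 3.74 in choroid (50% to 64.4%) and 28.9% ± 8.31 in retina (17.8% to 46.4%). That of Mertk was 30.5% ± 2.62 and 29.6% ± 5.08, and that of Tyro3 was 12.2% ± 2.41 (7.73% to 16.7%) and 41.5% ± 6.36 (29.2% to 52.9%), so that the ranges of Axl and Tyro3 again did not overlap between tissues. The summed ligands then exceeded the summed receptors by 1.75 ± 0.333 times in choroid (1.27 to 2.87) and by 5.69 ± 1.1 times in retina (3.96 to 8.14).

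**Figure D2:**
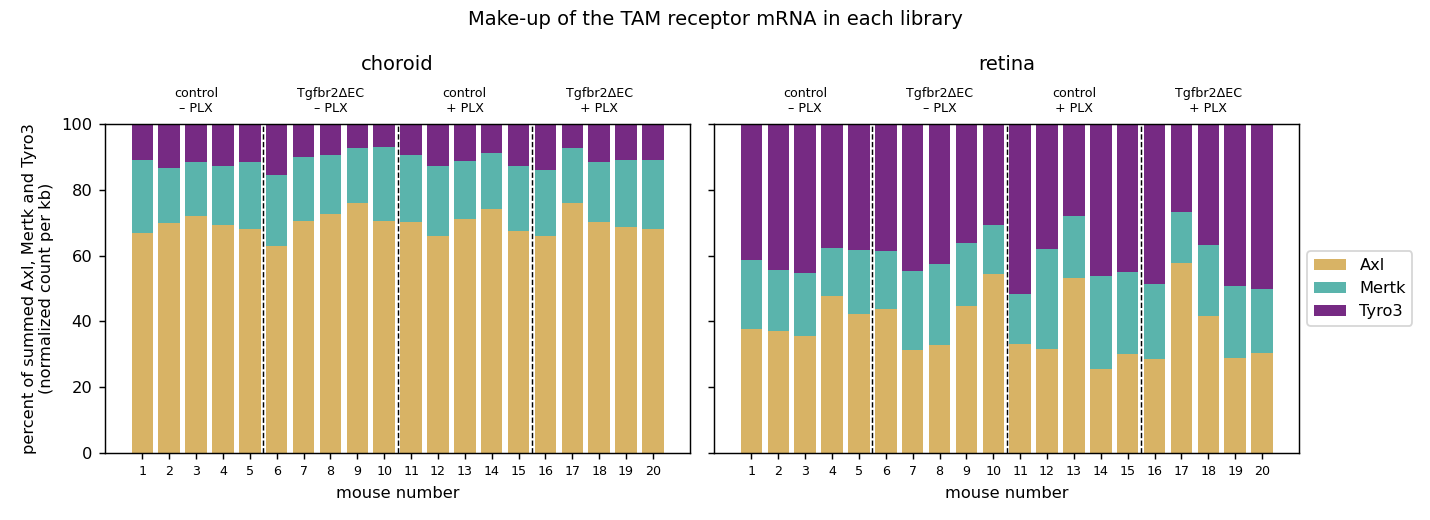
Share of Axl, Mertk and Tyro3 in the summed receptor level per kilobase (percent) for each of the 20 mice, in choroid and retina, with dashed lines between the groups. Axl takes 63.0% to 76.2% of every choroid bar, whereas Tyro3 takes 26.5% to 51.5% of every retina bar.

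The diet comparison asked whether TAM transcripts were lost together with the MP. In choroid they were not detectably lower: 0 of 5 members passed the threshold and 0 of 5 had an unadjusted p under 0.05 (limma, lowest adjusted p = 0.755), while 7.13% of 23619 genes were called. Mertk ranged from 2292 to 3011 normalized counts without PLX (median 2581) and from 2304 to 3189 with PLX (median 2620). The ranges cover each other, and the log2 difference was 0.03 (95% interval -0.10 to 0.17). Axl ranged from 7228 to 11585 (median 9426) without and from 7022 to 12622 (median 9013) with PLX, a log2 difference of 0.02 (-0.19 to 0.24). Tyro3 differed by 0.04 (-0.22 to 0.30), Gas6 by 0.07 (-0.12 to 0.26) and Pros1 by -0.04 (-0.16 to 0.09). The Gas6 value averages 0.30 in control mice (0.03 to 0.57, unadjusted p = 0.0308, adjusted p = 0.288, limma) and -0.16 in Tgfbr2ΔEC mice (-0.43 to 0.11). The lowest bound of the 5 intervals was -0.22 on the log2 scale, in choroids whose MP markers had a median difference of -2.60. The exact permutation test of diet within genotype gave p between 0.51 and 0.825 for the 5 members in choroid (two-sided, 63504 relabellings). Beside them, 7 of 10 endothelial markers were higher in the choroids with PLX (median log2 difference 0.25), as were 2 of 8 mural markers and 1 of 6 fibroblast markers, and their part in the levels of the members was not tested. Rod markers had a median log2 difference of -1.10 (0 of 10 called, limma, values from -1.3 to -1.0), with a rod score of 10.73 ± 1.68 without and 9.61 ± 1.49 with PLX (SD, n = 10). RPE markers had a median of 0.20 (0 of 10 called), with a score of 13.47 ± 0.22 and 13.63 ± 0.22. With the RPE score as a covariate the difference of Mertk was -0.05 in place of 0.03, and with the rod score those of Mertk and Axl were -0.008 and -0.06 in place of 0.03 and 0.02. None of the 5 members was called with either covariate (limma, lowest adjusted p = 0.753).

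In retina, too, 0 of 5 members passed the threshold, and 0 of 5 had an unadjusted p under 0.05 (limma, lowest adjusted p = 0.901), against 1.09% of 23243 genes called (254 genes, or 154 with a minimum mean of 10). Axl ranged from 350 to 927 normalized counts without PLX (median 481) and from 235 to 883 with PLX (median 321), a log2 difference of -0.40 (-0.86 to 0.06) that did not pass the exact permutation test (p = 0.111). Most of the retinas with PLX lay in the lower part of the range, and 1 of them, from a Tgfbr2ΔEC mouse, stood at 883. Tyro3 ranged from 439 to 527 without PLX (median 490) and from 305 to 568 with PLX (median 454), a log2 difference of -0.15 (-0.33 to 0.04, exact permutation p = 0.0829). Mertk differed by -0.03 (-0.26 to 0.19), Gas6 by 0.01 (-0.18 to 0.20) and Pros1 by 0.08 (-0.25 to 0.40). MP markers differed by a median of -5.42 in the same retinas.

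The difference between the tissues in the diet effect was tested directly, as choroid minus retina. For Axl it was 0.42 (-0.10 to 0.94) on the log2 scale, and for the other 4 members it lay between -0.11 and 0.19. Of the 5 members 0 passed the threshold and 0 had an unadjusted p under 0.05 (limma, lowest adjusted p = 0.636), with 1.37% of 24317 genes called (332 genes, or 620 without mouse 15, a control + PLX mouse, again with 0 members). Of the 61 pathway genes introduced next, 3 were called in each direction: Trem2 (3.44), Vav1 (2.65) and Havcr2 (1.57) had positive values, and Stab1 (-1.84), Cd36 (-1.26) and Sirpa (-0.99) negative ones. The calls of Cd36, Sirpa, Trem2 and Vav1 held under every alternative. The 3 genes with positive values had retina means with PLX of 0.78 to 2.732 normalized counts, and their values fell to 1.685 for Trem2, 0.935 for Vav1 and 0.614 for Havcr2 with a pseudocount of 5, where the call of Havcr2 was lost (limma, adjusted p = 0.297). Stab1 lay close to the threshold (adjusted p = 0.0461, limma), and its call was lost with a replicate block for the mouse (adjusted p = 0.184), under 3 of the other alternatives (0.0502 to 0.0719) and in 14 of 20 fits without 1 mouse (highest 0.112).

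Other genes of engulfment and of the TAM pathway gave a background to these values. Of 61 genes in 7 lists, 17 fell and 1 rose with PLX in choroid and 5 of 58 tested fell in retina. These are 29.5% of the listed genes in choroid and 8.6% in retina, where 7.13% and 1.09% of all genes were called, and the medians over the lists were -0.09 and -0.07 (all genes tested: 0.001 and 0.003). Among 22 phosphatidylserine bridging proteins and other engulfment receptors, 9 fell in choroid. They were led by Stab1, a scavenger receptor of resident macrophages and sinusoidal endothelium (-2.22 ± 0.22, log2 difference ± SE, adjusted p = 2.42e-07, limma), and Timd4, a phosphatidylserine receptor of resident macrophages (-2.18 ± 0.38, adjusted p = 0.000492). Trem2, a lipid-sensing receptor of microglia, fell by 1.95 ± 0.16 in choroid (adjusted p = 1.71e-08) and by 5.40 ± 0.33 in retina (adjusted p = 5.79e-10). With PLX the mean level of Trem2 in retina was only 0.944 normalized counts, so that the size depends on the pseudocount: over the alternatives the log2 difference ranged from -6.059 to -3.628. Havcr2 (TIM-3) fell by 1.64 ± 0.13 in choroid and fell by 3.22 ± 0.30 in retina, where its mean with PLX was 2.732 normalized counts and the difference ranged from -3.452 to -2.22 over the alternatives. Cd36, the scavenger receptor that RPE and macrophages share, fell by 1.49 ± 0.12 in choroid, from 3228 ± 587 to 1158 ± 228 normalized counts (SD, n = 10).

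**Figure D3:**
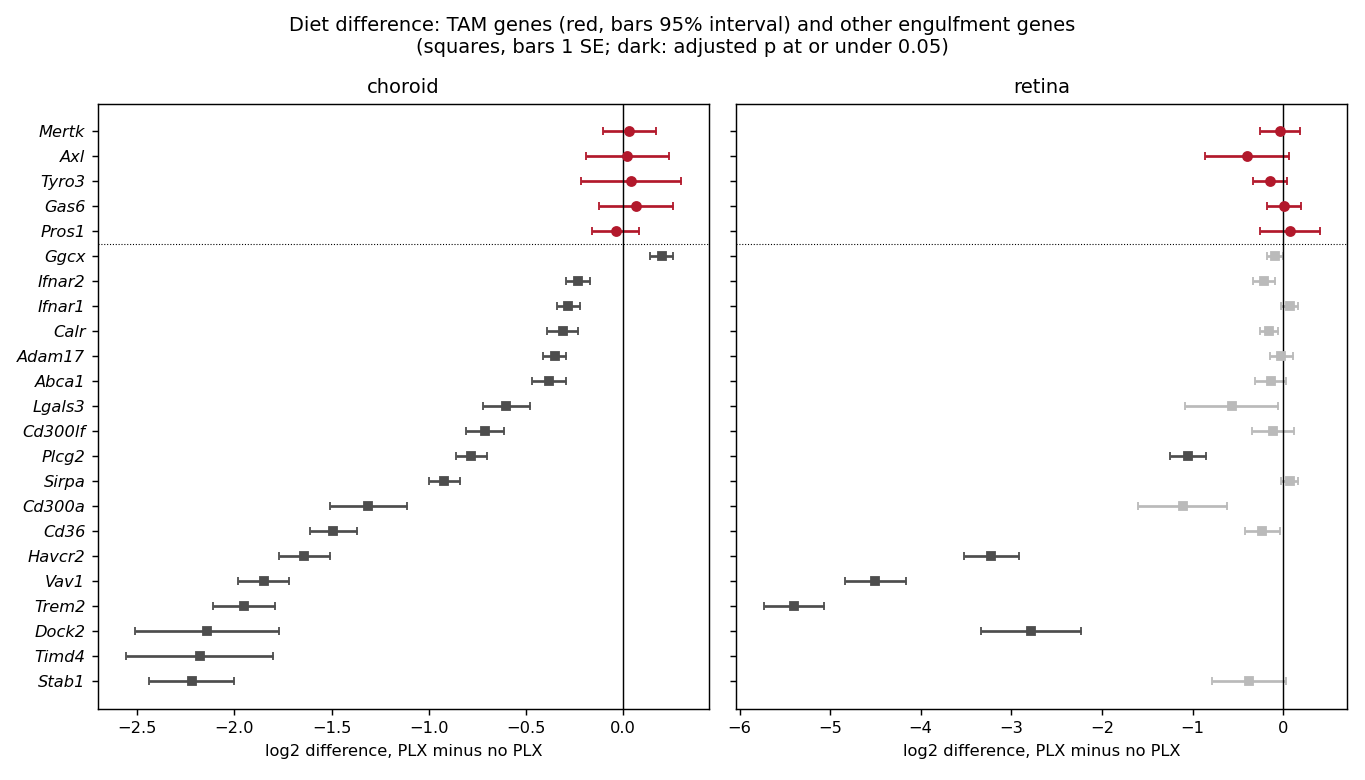
Log2 difference between diets (PLX minus no PLX) in choroid and retina for the 5 TAM genes (red, bars give the 95% interval) and for the 18 other genes of the pathway lists called in choroid (squares, bars give 1 SE; dark where called in that tissue). The intervals of all 5 TAM genes cover 0 in both panels, while Stab1, Timd4, Dock2 and Trem2 lie near or below -2 in choroid.

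Cd300a (-1.31), Sirpa (-0.92), which receives the don't-eat-me signal of Cd47, Cd300lf (-0.71) and Calr (-0.31) completed the 9 genes, and the call of Calr was lost when the RPE score was held as a covariate. Mfge8, which bridges phosphatidylserine to integrins in the way Gas6 bridges it to TAM receptors, was not among them (log2 difference 0.24, adjusted p = 0.0712, limma), nor were the integrin chains Itgav, Itgb5 and Itgb3. Of 16 genes that act downstream in engulfment, 3 fell in both tissues: Vav1, a hematopoietic exchange factor for Rac (-1.85 ± 0.13 in choroid and -4.50 ± 0.34 in retina), Dock2, likewise hematopoietic (-2.14 ± 0.37 and -2.78 ± 0.55), and Plcg2 (-0.78 ± 0.08 and -1.05 ± 0.20). Vav1 was likewise near 0 in the retinas with PLX (mean 0.78 normalized counts), and its log2 difference there ranged from -5.201 to -2.763 over the alternatives. Dock1 and Vav2, broadly expressed relatives of Dock2 and Vav1, were not called in either tissue.

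Of the smaller lists, 1 of 3 further reported TAM ligands fell in choroid, Lgals3 (galectin-3), from 6080 ± 1313 to 3998 ± 835 normalized counts (SD, n = 10; log2 difference -0.60, adjusted p = 0.00222, limma). Of the 2 proteases that shed TAM receptors, Adam17 fell by 0.35 in choroid and Adam10 was not called. Of 8 LXR and other nuclear receptor genes and targets, Abca1, a cholesterol exporter and LXR target, fell by 0.38 in choroid, while 0 of 8 were called in retina (limma, adjusted p at or under 0.05). The interferon receptor chains Ifnar1 (-0.28) and Ifnar2 (-0.23), through which TAM receptors induce their feedback inhibitors, fell in choroid. The feedback inhibitors Socs1 and Socs3 were not called there. Ggcx, the carboxylase that makes the Gla residues of Gas6 and protein S, was the 1 gene that rose (0.20, adjusted p = 0.0382). The calls of Ggcx and Ifnar2 were each lost in 12 of 20 fits that left out 1 mouse. Both were also lost with no minimum mean and with the sex score or the RPE score as a covariate, that of Ggcx with the rod score as a covariate and that of Ifnar2 with size factors made within the tissue. The highest adjusted p over the alternatives was 0.155 for Ggcx and 0.0874 for Ifnar2 (limma).

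Between the tissues, 50 of the 61 listed genes were higher and 10 lower in choroid, against 40.8% of all genes higher and 41.1% lower. The genes with the largest positive differences were Twist1 (8.33), a transcription factor that TAM signalling induces, Cd300a (6.58) and Twist2 (6.52). Twist1 and Twist2 were near the floor in retina, with means of 1.919 and 0.596 normalized counts without PLX and 0.829 and 0 with PLX. Their sizes and this order therefore depend on the pseudocount. Tub and Tulp1, photoreceptor genes whose products have been reported as TAM ligands, were lower in choroid, with log2 differences of -5.54 ± 0.22 and -5.99 ± 0.28 (SE, limma). Lgals3 was higher by 5.93 ± 0.28. The carboxylation genes were split: Vkorc1 was 3.82 higher and Ggcx 1.04 higher in choroid, and Vkorc1l1 had a log2 difference of -0.49.

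The genotype comparison asked whether loss of endothelial Tgfbr2 changed TAM transcripts, and whether this depended on MP. Neither was detected across genes. In choroid, 0 of 5 members passed the threshold without PLX (limma, lowest adjusted p = 0.589, 0 of 5 with an unadjusted p under 0.05) and 0 of 5 with PLX (lowest adjusted p = 1, 1 of 5 with an unadjusted p under 0.05), where 0.00423% of 23619 genes, that is 1 gene, were called in each. The count without PLX depended on the fit: 303 genes were called when only the 10 mice compared were fitted and 411 without 1 control + PLX mouse (mouse 15), against 0 to 2 under the other alternatives, and in no fit was a member among the calls. In retina 0 of 5 passed in either diet, with 0% of 23243 genes called and 0 of 5 members under an unadjusted p of 0.05. In the test of the genotype by diet interaction 0 of 5 passed in either tissue, again with 0% of all genes called. The unadjusted p was under 0.05 for 1 of 5 members in choroid and for 0 of 5 in retina. Of the pathway genes, too, 0 of 61 in choroid and 0 of 58 in retina passed the threshold in these comparisons (limma). An unadjusted p under 0.05 was reached by 8.2% of them in choroid without PLX (9.2% of all genes), by 3.3% with PLX (3.8%) and by 9.8% in the interaction (6.6%). In retina these shares were 0% without PLX (3.3% of all genes), 5.2% with PLX (2.7%) and 0% in the interaction (2.4%).

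Gas6 was the member with the low unadjusted p in choroid. The 5 control – PLX choroids had 12612, 16098, 12484, 15848 and 9521 normalized counts. The Tgfbr2ΔEC – PLX choroids had 14922, 15660, 15462, 13969 and 13900. With PLX the controls had 16300, 20192, 15099, 14922 and 14491, and the Tgfbr2ΔEC mice had 14731, 10745, 13460, 12682 and 14901. The groups overlapped under both diets, with Tgfbr2ΔEC narrower and slightly higher without PLX and lower with PLX. The log2 difference between genotypes was 0.18 ± 0.13 without PLX (SE, exact permutation p = 0.254 over 252 relabellings) and -0.28 ± 0.13 with PLX (exact permutation p = 0.0397). Their difference was 0.46 (0.08 to 0.84, unadjusted limma p = 0.0201, adjusted p = 0.635, permutation of genotype within diet p = 0.0194). That permutation is exact only if genotype has no effect under either diet. Its p was 1 of 3 unadjusted permutation p under 0.05 among the 45 computed for the members. With the rod score, which was highest in the Tgfbr2ΔEC – PLX choroids, as a covariate, the difference was 0.52 (adjusted p = 1, limma).

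Tyro3 in the Tgfbr2ΔEC – PLX choroids was at 1749, 1506, 1490, 970 and 809 normalized counts, against 1379, 1852, 1634, 1634 and 1496 in control – PLX. The 2 lowest mice lay below all 5 controls and the other 3 among them, and the log2 difference of -0.35 (-0.71 to 0.02) did not pass (unadjusted p = 0.063, limma; exact permutation p = 0.198). Mertk in retina was at 247, 273, 287, 241 and 254 in Tgfbr2ΔEC – PLX and at 248, 211, 192, 211 and 247 in control – PLX, so that the groups overlapped at their edges. This log2 difference of 0.23 (-0.08 to 0.55) had an exact permutation p of 0.0476 and an unadjusted limma p of 0.14. With PLX the Mertk difference was -0.08 (-0.39 to 0.24), but 0.033 without mouse 12, so its direction is not established. The interaction did not pass (permutation of genotype within diet, p = 0.131).

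Members were then compared with cell type scores within groups, after subtracting the group means of both, over the 20 libraries of a tissue. Of 30 relations (5 members, 3 scores, 2 tissues), 2 passed Benjamini-Hochberg adjustment. In choroid, Mertk followed the RPE score (10 genes including Rpe65 and Rlbp1, score range 13.1 to 14.0), with Pearson r = 0.78 (permutation p = 0.0004, adjusted p = 0.006) and Spearman rho = 0.73 (permutation p = 0.0013, adjusted p = 0.0195). Without the 2 libraries farthest from the median score r was 0.70. The relation of Mertk to the MP score in the same choroids was r = -0.21 (permutation p = 0.453, adjusted p = 0.82).

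In retina, Gas6 followed the rod score, with Pearson r = 0.85 (permutation p = 8e-05, adjusted p = 0.0024) and Spearman rho = 0.87 (permutation p = 6e-05, adjusted p = 0.0018), and r = 0.83 without the 2 farthest libraries (0.82 without the 2 with the highest Gas6). The score itself spanned only 15.8 to 16.4, and the libraries with the highest Gas6 relative to their group lay at its upper end. Genes outside the score, described below, also correlated highly with Gas6 in retina. Whether the relation is particular to photoreceptor genes was not tested. Axl was related to none of the 3 scores in either tissue after adjustment (lowest adjusted permutation p = 0.317). Relations to endothelial, mural and fibroblast markers were not tested.

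**Figure D4:**
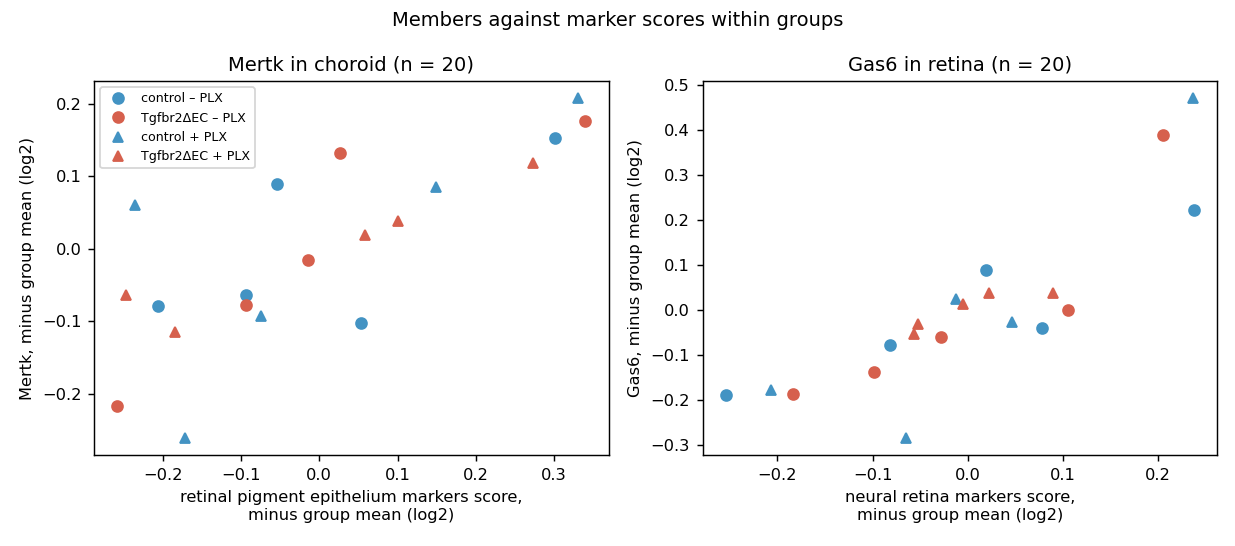
Log2 normalized counts against a marker score, each minus its group mean, for Mertk and the RPE score in choroid and for Gas6 and the rod (neural retina) score in retina. Each point is 1 of 20 libraries, with genotype by colour and diet by shape. Mertk rises with the RPE score (r = 0.78), and Gas6 rises with the rod score (r = 0.85).

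Finally, for each member the protein-coding genes with the most similar profile were listed, over libraries of 1 tissue that share scaling and tissue pieces, so the correlations are descriptions. Among 13641 genes in the 20 choroids, Mertk was most like Tmem229b (r = 0.864), Cldn12 (0.854) and Tc2n (0.851), Axl most like Lrrc8c (0.793), Zc3h11a (0.771) and Igf2r (0.768), and Tyro3 most like the epithelial keratin Krt8 (0.813), Klhdc7a (0.769) and Sytl3 (0.734). Gas6 was most like Tspan11 (0.795), the retinoic acid hydroxylase Cyp26b1 (0.757) and Cox4i2 (0.752), and Pros1 most like Nbr1 (0.744), Map3k3 (0.731) and Susd6 (0.714). The members were not close to each other: the highest correlation between 2 of them in choroid was that of Mertk and Axl (0.443), and Gas6 correlated at -0.12 with Axl and at 0.03 with Mertk.

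Among 12773 genes in the 20 retinas, the profile of Gas6 stood out by its closeness to Dbp, a transcription factor that is an output of the circadian clock (r = 0.974), to Nop53 (0.965) and to the ribosomal protein gene Rpl9 (0.96). Without the 2 retinas with the highest Gas6 (mouse 7 at 6147 and mouse 11 at 6806 normalized counts), left out after seeing the data, these were 0.943, 0.896 and 0.899. Dbp ranged from 2179 to 5707 normalized counts over these retinas, and Gas6 from 4031 to 6806. The nearest genes of the other members were less close: Ccdc168 (0.775), Pcdhgb7 (0.736) and Dcp1b (0.733) for Mertk, Cish (0.788), Birc2 (0.714) and Clrn1 (0.683) for Axl, Tefm (0.789), Lars2 (0.774) and Pde1b (0.75) for Tyro3, and Stat3 (0.762), Nes (0.76) and Endou (0.737) for Pros1. With the 2 libraries farthest from the median of the member left out in the same way, the nearest genes of Tyro3 rested on those libraries, with r between 0.14 and 0.481 in retina and between 0.415 and 0.465 in choroid. For Mertk, Axl and Pros1 in both tissues and Gas6 in choroid r was between 0.548 and 0.852. Over all 40 libraries the tissues dominate and the correlations are high throughout. There the nearest genes were Cped1, Nrp2 and Itpkb for Mertk (each 0.995), Thbs2, Cyyr1 and Itpripl2 for Axl (each 0.988), Id2 (0.971) and Sostdc1 (0.968) for Tyro3, Fth1 (0.983), Adra2c and Cst3 (each 0.982) for Gas6, and Zcchc24, Clic4 (each 0.989) and Msn (0.988) for Pros1.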

How the data were processed

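Poly-A RNA from each tissue went into strand-specific, single-read libraries. The authors used Salmon 1.10.1 on GRCm39 for quantification and tximport with DESeq2 1.36.0 for normalization. The deposited signal values are the resulting normalized counts. They are fractional: the spacing of low values put 1 read at 0.9 to 1.185 units per choroid and 0.745 to 1.12 per retina, but a median of only 74.35% and 72.7% of low values fell within 0.1 of a multiple. A count test was therefore not run, and depths (21628874 to 28331348 reads per choroid, 21033887 to 30421581 per retina) are approximate.

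Group, tissue and mouse number came from the labels, with 5 mice per group. Tests across genes used limma 3.58.1 (R 4.3.3) on log2(normalized count + 1), with the variance allowed to depend on the mean. This scale understates changes of low genes, and genes whose mean was under 1 were left out. The 20 libraries of a tissue entered one fit of 4 groups, and tissue comparisons entered one fit of 40 libraries. Benjamini-Hochberg adjustment ran over all genes tested, and an adjusted p at or under 0.05 was called. For single members, exact permutation tests (two-sided) were used (5 mice against 5: 252 relabellings, smallest p 0.00794), and relations used 100000 resamples, computed with Python 3.11.15 and scipy 1.17.1. For the interaction, genotype was relabelled within diet, which is exact only for no genotype effect under either diet. The diet comparison within each tissue was also run on simulated counts, and the other comparisons were not simulated.

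A retina and a choroid with the same number were taken as 1 mouse, from the library names. A sex score agreed in sign in 20 of 20 such pairs. The correlation of their deviations from group means ranged from -0.197 to 0.354 (median 0.181, over 0.1 in 14 of 20). Of the listed identifiers, 53700 matched GENCODE release M39 and 607 did not. Promoters came from RefSeq (GRCm38.p6), and no coordinates were converted between builds.

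The members and gene lists were chosen with earlier results of these data known. The genes named are the 5 members, Tgfbr2, genes of the pathway lists that passed the threshold or stood among the 3 largest differences, and the 3 genes most correlated with each member (mean of at least 50), of which 1 is not reported here. Dock1, Vav2, Mfge8, the integrin chains, Adam10, Socs1, Socs3, Vkorc1 and Vkorc1l1 were named after their values were seen. Tmem255b and Gm14011 are named for their overlap with a member, and Rpe65 and Rlbp1 as examples of the RPE list. Alternatives were other pseudocounts, minimum means and scalings, robust variance, covariates, fits of 10 mice, leaving out each mouse and the replicate block. The covariates of the authors (sex and xCell neuronal percentage) and protein sequences were not used here.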

Additional observations from a re-analysis of the deposited data

Results flagged for a closer look

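Among 40 sets of 5 libraries (5 members, 8 groups of tissue, genotype and diet), 2 held a library far from the other 4, where chance gives about 2. Axl in the Tgfbr2ΔEC + PLX choroids was at 11064 normalized counts in 1 mouse and at 8553 to 9074 in the other 4, a gap of 0.793 of the whole range. Gas6 in the Tgfbr2ΔEC – PLX retinas was at 6147 in 1 mouse and at 4126 to 4695 in the other 4, a gap of 0.719 of the range. Both lay above the critical gap of 0.71 for 5 libraries.

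The genotype difference of Gas6 in choroid differed between the diets by 0.458 on the log2 scale (without PLX minus with PLX, permutation of genotype within diet, p = 0.0194, adjusted p = 0.635 over all genes by limma).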

How the results depend on the processing

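No member changed its call in any comparison under any alternative: over 540 values under other settings and 1000 without 1 mouse (50 results of members), the 5 members stayed past the threshold between tissues and none passed in a diet, genotype or interaction comparison (lowest adjusted p = 0.398, limma). Differences that were not called changed sign in 15 and 54 of these values, always from a main log2 difference within 0.208 of 0, so their direction is not established. The fit with a replicate block (choroid minus retina per mouse) gave the same tissue difference, 3.47 for Mertk (adjusted p = 5.63e-21) and 4.45 for Axl (adjusted p = 2.23e-18), with 5 members called, and 0 members called in the diet by tissue test (0.42 for Axl, adjusted p = 0.65); it changed no call of a member. The interaction of Gas6 in choroid ranged from 0.436 to 0.518 over other settings and from 0.344 to 0.533 without 1 mouse (adjusted p 0.503 to 1).

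The tissue differences assume that the deposited scaling over both tissues holds. Scaling to equal totals moved the median over all genes of the difference between tissues from -0.0116 to -0.1213, and upper quartile scaling to -0.1419. Over the alternatives the tissue difference ranged from 3.326 to 3.472 for Mertk, from 4.308 to 4.453 for Axl, from 1.486 to 1.63 for Tyro3, from 1.434 to 1.578 for Gas6 and from 2.6 to 2.745 for Pros1. Levels per kilobase depend on the transcript length chosen. The intervals for Axl and Pros1 in retina are wide, beside coefficients of variation between retinas of 41.7% and 24.4%. The absence of a call there does not show that a level was unchanged.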
